A study of Mus musculus with 12 samples.

Results

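Tph1 encodes tryptophan hydroxylase 1, the first enzyme on the way from tryptophan to serotonin and melatonin in the pineal gland, and its transcript was present in every one of 12 RNA libraries made from mouse meninges. The 12 libraries were ranked by their deposited log2 value of Tph1, and the 4 highest (Tph1-high) were set against the 4 lowest (Tph1-low) across all other genes, with the other 4 as a class in between. The question was which transcripts go with this pineal marker in a preparation meant to hold meningeal lymphatic endothelial cells. Of the 11954 genes tested apart from Tph1, 12 were higher in the Tph1-high libraries (0.1% of the genes tested) and 1 was lower (0.00837%), by limma at a Benjamini-Hochberg adjusted p below 0.05. The higher ones included genes shared by pinealocytes and photoreceptors (Gnb3, Pde6g, Cdhr1), a gene of the cofactor that Tph1 needs (Gch1), a LIM homeobox gene (Lhx3) and genes of regulated secretion (Nsf, Chgb).

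The Tph1-high libraries were AD_B6_2, AD_B6_1, AD_TG_2 and SJL_B6_2, and the Tph1-low libraries were AD_TG_1, AD_B6_4, AD_TG_4 and AD_B6_3. Per-library values are given in these orders throughout. The libraries in between were AD_TG_3, SJL_B6_1, SJL_B6_4 and SJL_B6_3. The names are the labels' own titles, made of a group (AD_TG, AD_B6 or SJL_B6, with 4 libraries each) and a replicate number. The labels do not spell the groups out, name no transgene, promoter or treatment, and give the strain C57BL/6, the tissue meninges and an age of 20 weeks for all 12. Magnetic sorting was used to isolate the cells, with 3 to 4 mice per strain. Each library was made from 500 ng of total RNA with the Lexogen QuantSeq kit, which reads transcripts near 1 end. Whether the libraries of 1 group stem from different mice is not stated, so the p-values here measure only the spread between these libraries, which may be technical. The defining marker of the sorted cell type was nearly absent: Prox1, which sets lymphatic identity, had reads in 2 of the 12 libraries, both of them in between.

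Pinealocytes share their origin and much of their gene use with retinal photoreceptors: both depend on the homeobox factors Otx2 and Crx and carry parts of the phototransduction cascade. The pineal gland makes serotonin and, mostly at night, melatonin, through tryptophan hydroxylase, the decarboxylase Ddc, the acetyltransferase Aanat and the methyltransferase Asmt. C57BL/6 mice are known to make very little melatonin. The gland lies at the midline under the skull, next to the dura, and the choroid plexus, which makes transthyretin, lies nearby in the ventricles. Tph1 is not unique to the gland, since mast cells also use it to make serotonin.

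The homeobox factors Otx2 and Crx bind the bases TAATCC, which read GGATTA on the other strand. Promoter windows of 250 bases before to 50 bases after a gene's start were taken from RefSeq (GRCm38.p6), 5′ to 3′ on the gene's strand, with the motif in capitals where it occurs. They are shown for Tph1, by which the libraries were ranked (the downstream of its 2 listed starts, chr7:46667328-46667627, minus strand), and Rbp3, the interphotoreceptor retinoid-binding protein of pineal gland and retina (chr14:33953753-33954052, plus strand). Rbp3 lay higher in every Tph1-high than in every Tph1-low library, but its difference did not pass limma.
Tph1: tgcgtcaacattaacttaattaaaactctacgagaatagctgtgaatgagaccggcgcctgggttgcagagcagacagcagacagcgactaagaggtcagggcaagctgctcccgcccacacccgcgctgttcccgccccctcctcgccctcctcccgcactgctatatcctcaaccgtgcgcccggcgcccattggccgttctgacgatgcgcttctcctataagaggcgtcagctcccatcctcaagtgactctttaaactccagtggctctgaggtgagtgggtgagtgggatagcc
Rbp3: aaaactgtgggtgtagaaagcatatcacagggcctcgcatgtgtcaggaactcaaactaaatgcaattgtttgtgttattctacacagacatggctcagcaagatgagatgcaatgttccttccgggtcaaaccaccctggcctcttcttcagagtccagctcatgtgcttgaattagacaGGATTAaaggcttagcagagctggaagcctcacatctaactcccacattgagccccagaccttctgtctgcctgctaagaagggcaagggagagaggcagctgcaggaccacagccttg
The Tph1 window does not hold these letters, and the Rbp3 window holds them once on the opposite strand, at position -69 relative to the start. Searched on both strands, the motif occurred in 8 of 40 promoters (20%) of the 30 matched members of the 3 pineal lists described below, namely those of Sag, Gnat2, Gngt1, Crx, Cngb1, Unc119, Rbp3 and Otx2. It occurred in 0 of 18 promoters of the 9 matched genes among the 12 that were higher, and in 2320 of all 32851 promoters of the table (7.06%). A match is a description of letters, not a binding site.

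All values are deposited log2 values, log2(x + 1) of a scaled amount x, unless another unit is given. Tph1, which chose the libraries and so has no test, stood at 13.76, 13.67, 13.52 and 13.39 in the Tph1-high libraries, against 11.98, 11.52, 11.17 and 10.44 in the Tph1-low libraries. The 4 libraries in between ran from 12.04 to 12.71. The gap at the upper edge was 0.68, between SJL_B6_2 (13.39) and AD_TG_3 (12.71), whereas the gap at the lower edge was 0.05, between SJL_B6_3 (12.04) and AD_TG_1 (11.98). On the linear scale, Tph1 made up 1623 to 2060 per 1000000 of the Tph1-high libraries and 223 to 556 per 1000000 of the Tph1-low libraries, which stood for an estimated 13858 to 16565 and 1977 to 2807 reads.

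The classes cut across the labels unevenly. AD_B6 gave 2 Tph1-high and 2 Tph1-low libraries, AD_TG gave 1 and 2, and SJL_B6 gave 1 and 0. Of the 4 Tph1-high libraries, 3 carried the replicate number 2, and no library with that number was in another class. The estimated depth was 6747690 to 9262220 reads in the Tph1-high libraries and 4203500 to 8883700 reads in the Tph1-low libraries (exact two-sided permutation p = 0.229, adjusted over 5 library measures 0.571). Genes with reads numbered 11036 ± 388 in the Tph1-high libraries and 10683.5 ± 1450 in the Tph1-low libraries (SD, n = 4 each, exact permutation p = 0.714, adjusted 0.83). Among the Tph1-low libraries AD_B6_3 stood apart with 8748 genes with reads, the fewest of the 12, and many transcripts of low level were listed at 0 there. The share of Ttr, the choroid plexus transcript, was 0.162 to 5.84% in the Tph1-high libraries and 2.94 to 8.31% in the Tph1-low libraries (exact permutation p = 0.0857, adjusted 0.429). With 4 libraries against 4, this test cannot go below 0.0286.

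**Figure D1:**
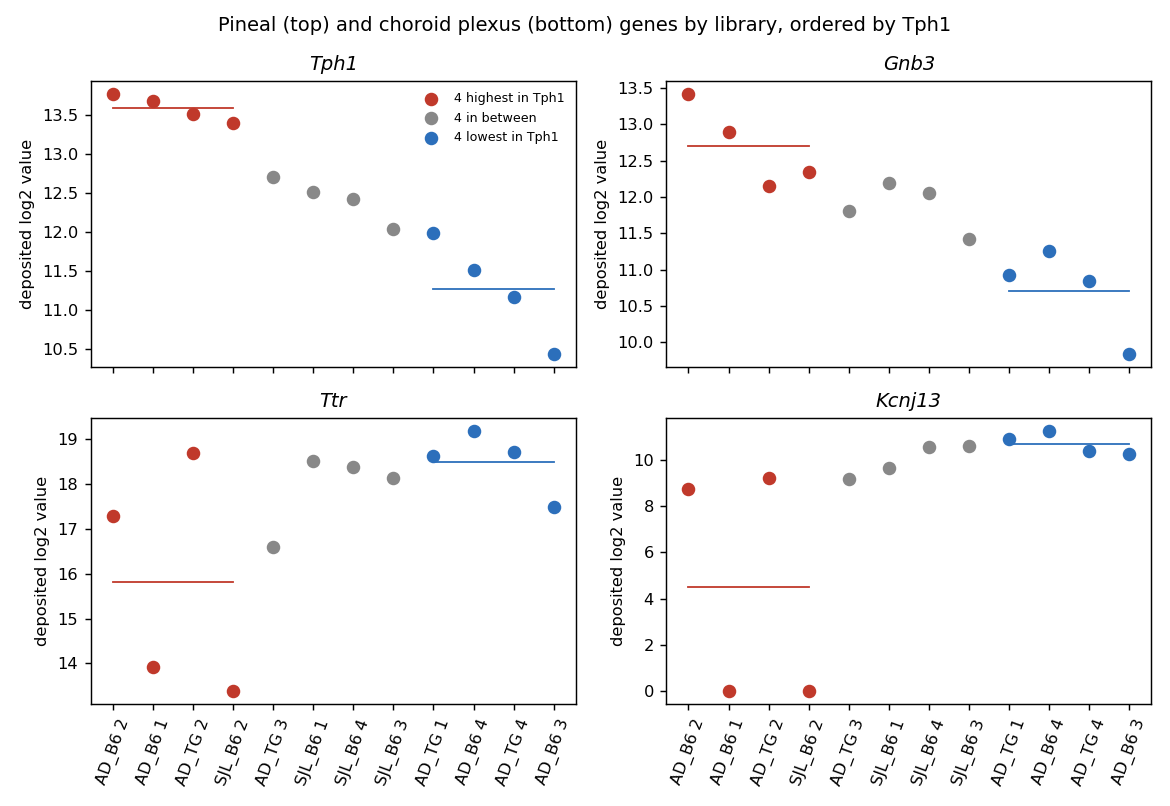
Deposited log2 values (vertical axes) of Tph1, Gnb3, Ttr and Kcnj13 in each of the 12 libraries (horizontal axes, ordered by Tph1 from highest to lowest). Red points are the Tph1-high libraries, grey points those in between and blue points the Tph1-low libraries, and horizontal lines mark class means. Gnb3 descends with Tph1 from 13.42 in AD_B6_2 to 9.84 in AD_B6_3, while Ttr and Kcnj13 are spread widely among the Tph1-high libraries.

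Among the genes that passed as higher were 3 known from photoreceptors: Gnb3, Pde6g and Cdhr1. Only Gnb3 of them was a member of the lists described below. Gnb3 encodes the beta subunit of the cone type G protein transducin. It stood at 13.42, 12.90, 12.15 and 12.35 in the Tph1-high libraries, against 10.92, 11.26, 10.84 and 9.84 in the Tph1-low libraries. No library of one class reached the other, the difference was 1.99 (SE 0.35, 95% interval 1.27 to 2.71) and the adjusted p was 0.0139 in limma. Pde6g encodes the inhibitory gamma subunit of the photoreceptor phosphodiesterase. Its values were 12.92, 13.02, 12.75 and 12.57 in the Tph1-high libraries and 10.997, 11.40, 11.04 and 10.80 in the Tph1-low libraries. The difference was 1.76 (SE 0.28, adjusted p = 0.0102 in limma). Cdhr1, a cadherin of photoreceptor outer segments, stood at 12.26, 11.96, 11.91 and 12.27 in the Tph1-high libraries and at 10.70, 10.41, 10.52 and 9.90 in the Tph1-low libraries (difference 1.72, SE 0.33, adjusted p = 0.0332 in limma). In all 3 genes the classes did not overlap, against 2.9% of all genes tested. The mean of the libraries in between lay between the class means in all 3. Because these are bulk libraries, fewer cells of a type and less RNA per cell cannot be told apart here.

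Of 16 phototransduction genes in the list, 13 could be tested, and all 13 were higher in the Tph1-high libraries, with a median difference of 1.74 against 0.10 over all genes tested. Only Gnb3 of the 13 passed the test. For 5 of the 13 every Tph1-high library lay above every Tph1-low library, which held for 2.9% of all genes tested: Gnb3, Rbp3, Pde6b, Unc119 and Rom1. Rbp3 stood at 12.06, 12.81, 11.96 and 11.71 in the Tph1-high libraries and at 9.56, 11.44, 10.70 and 10.26 in the Tph1-low libraries (difference 1.64, SE 0.39, adjusted p = 0.130 in limma). Pde6b, a catalytic subunit of the phosphodiesterase that Pde6g inhibits, stood at 10.80, 10.96, 10.62 and 9.93 in the Tph1-high libraries and at 9.08, 6.97, 7.87 and 8.35 in the Tph1-low libraries (difference 2.51, SE 0.62, adjusted p = 0.159). Unc119, a carrier of transducin, differed by 1.83 (SE 0.56, adjusted p = 0.342) and Rom1, a membrane protein of outer segment discs, by 1.22 (SE 0.44, adjusted p = 0.468). These 4 differences did not pass.

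In the other tested members of that list the classes overlapped. Sag, which encodes arrestin, stood at 11.18, 11.16, 10.08 and 10.93 in the Tph1-high libraries and at 10.01, 10.50, 7.68 and 8.45 in the Tph1-low libraries (difference 1.68, SE 0.57, adjusted p = 0.426 in limma). The cone phosphodiesterase subunit Pde6c (1.31, SE 0.78), the cone transducin alpha subunit Gnat2 (1.03, SE 0.76) and the channel subunit Cngb1 (1.74, SE 1.06) had reads in all 12 libraries and differences within 2 SE of 0. Grk1, Gngt1, Pdc and Cacna1f lacked reads in 2 or more libraries. Cabp4 had reads in 1 library only, and Rcvrn and Pde6h had none in any.

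The retina, which uses the same cascade, has rod, cone and pigment epithelium genes that are known mainly from the eye, and a list of 7 of them was drawn up after the values had been seen. Cnga1 and Rpe65 had no reads in any library. Gnat1, Nrl and Nr2e3 had reads in 1 of the 12 libraries each, and Pde6a and Opn1mw in 2 each. These 7 genes were at or near 0 in at least 10 of 12 libraries each. They were listed with their values known, so this is no separate result. Other photoreceptor genes looked up at the same stage were not near 0 in so many libraries. The cone pigment gene Opn1sw had reads in 9 libraries and the disc protein gene Prph2 in all 12.

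**Figure D2:**
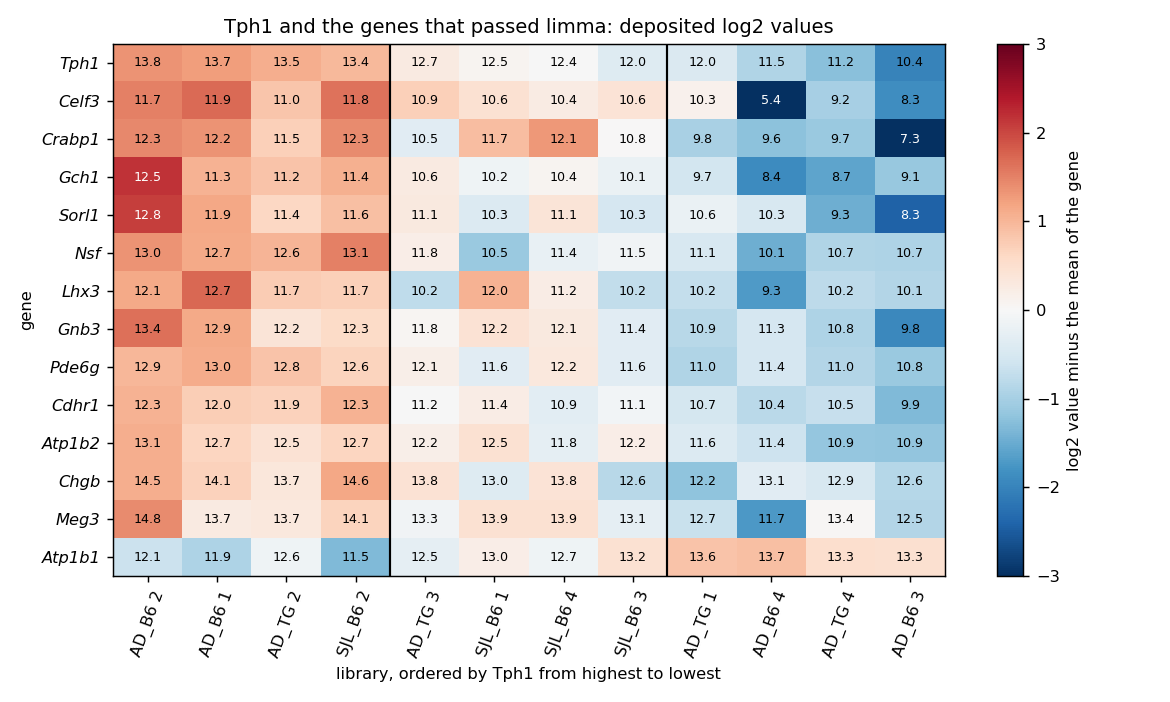
Heat map of Tph1 and the 13 genes that passed limma (rows) in the 12 libraries (columns, ordered by Tph1 from highest to lowest). Numbers are deposited log2 values, colour is the value minus the gene's mean over the 12 libraries, and black lines divide the Tph1-high libraries (left), those in between and the Tph1-low libraries (right). The 12 higher genes are red on the left and mostly blue on the right, and Atp1b1 shows the reverse. The highest Tph1-low library lies just above the gene's mean for Celf3 (10.33 against 10.19) and Meg3 (13.44 against 13.41).

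The melatonin pathway was represented mainly by its early steps. Gch1 encodes GTP cyclohydrolase 1, which makes the cofactor tetrahydrobiopterin that tryptophan hydroxylase uses. Gch1 stood at 12.46, 11.33, 11.16 and 11.37 in the Tph1-high libraries, against 9.73, 8.41, 8.72 and 9.14 in the Tph1-low libraries. The lowest Tph1-high library thus lay more than 1 log2 unit above the highest Tph1-low library, and the difference of the means was 2.57 (SE 0.46, 95% interval 1.62 to 3.53, adjusted p = 0.0142 in limma). Ddc, the decarboxylase that makes serotonin, stood at 12.17, 12.22, 10.33 and 12.11 in the Tph1-high libraries and at 10.69, 10.54, 9.97 and 8.39 in the Tph1-low libraries. Here AD_TG_2 fell within the range of the Tph1-low libraries (difference 1.81, SE 0.60, adjusted p = 0.419 in limma).

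The enzymes that complete melatonin were scarcely present. Aanat, the acetyltransferase, had reads in SJL_B6_2 only (4.93), and Asmt, the methyltransferase, in AD_B6_2 (0.86) and AD_TG_1 (4.97). Papss2, which makes the sulfate donor of sulfation reactions, ran from 7.61 to 8.88 in the Tph1-high libraries and from 0.75 to 8.60 in the Tph1-low libraries (difference 2.35, SE 1.38, or 0.64 without AD_B6_3). The adrenergic receptor genes, through which sympathetic nerves drive the gland, were variable: Adra1b ran from 5.62 to 9.82 in the Tph1-high libraries and from 0 to 7.98 in the Tph1-low libraries. Adrb1 ran from 8.62 to 10.73 in the Tph1-high libraries and from 7.17 to 10.21 in the Tph1-low libraries. Of the monoamine transporter genes, Slc18a1 had reads in 2 libraries and Slc18a2 and Slc6a4 in 3 each, and the dopamine receptor gene Drd4 had reads in AD_B6_1 only. Over the list, 5 of 11 members could be tested. All 5 were higher in the Tph1-high libraries, with a median difference of 2.35 (1.38 without AD_B6_3), and 1 of them, Gch1, passed.

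Pineal transcription factors were mostly higher in the Tph1-high libraries, with little certainty gene by gene. Lhx3, a LIM homeobox gene that was in none of the lists, ran from 11.67 to 12.67 in the Tph1-high libraries and from 9.25 to 10.24 in the Tph1-low libraries (difference 2.10, SE 0.43, adjusted p = 0.0449 in limma). Crx, the cone-rod homeobox factor, stood at 11.40, 9.41, 10.62 and 8.61 in the Tph1-high libraries and at 6.80, 6.11, 8.63 and 6.41 in the Tph1-low libraries. Its classes touched, since AD_TG_4 (8.63) lay just above SJL_B6_2 (8.61), and the difference of 3.02 (SE 0.82, adjusted p = 0.244 in limma) did not pass. Otx2, which acts above Crx, stood at 11.44, 11.83, 11.59 and 11.90 in the Tph1-high libraries and at 11.06, 11.15, 11.59 and 10.68 in the Tph1-low libraries, a difference of 0.57 (SE 0.35, adjusted p = 0.684). Otx2 is also a gene of the choroid plexus, whose transcripts were mostly lower in the Tph1-high libraries. Neurod1, a helix-loop-helix factor of the pineal gland, ran from 9.72 to 11.07 in the Tph1-high libraries and from 3.97 to 9.98 in the Tph1-low libraries (difference 2.82, SE 0.85, adjusted p = 0.340).

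Rorb, a nuclear receptor gene of pineal gland and retina, was the 1 member of this list whose classes did not overlap, at 8.57 to 10.32 in the Tph1-high libraries and 0.75 to 8.49 in the Tph1-low libraries (difference 2.94, SE 1.81), against 2.9% of all genes tested. Without AD_B6_3 the difference was 1.04 for Rorb and 1.59 for Neurod1. Lhx4 had reads in 3 Tph1-high and 2 Tph1-low libraries, and Isl2 in 4 and 3. Pax6 (0.76, SE 1.82) and Lhx9 (-0.06, SE 2.57) showed no clear order, and the sign of both turned under other settings. Bsx and Pax4 had no reads in any library. Of the 8 members tested, 7 were higher and 1, Lhx9, lower in the Tph1-high libraries. The median difference was 2.62, or 1.49 without AD_B6_3, and none passed.

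Together, the 3 pineal lists named 37 genes besides Tph1, of which 26 could be tested and 4 had no reads in any library. Of the 26, 25 were higher in the Tph1-high libraries and 1 was lower, against 6307 higher (52.8%) and 5647 lower of all genes tested. Gnb3 and Gch1 passed. The median difference was 1.86, it was 1.61 with the label group as a block, and it ran from 1.53 to 2.14 when each library was left out in turn. The summed linear share of all members was 0.464 to 0.790% in the Tph1-high libraries, 0.261 to 0.441% in those in between and 0.171 to 0.235% in the Tph1-low libraries, so the 3 classes did not overlap in it. Since the libraries were chosen by a pineal gene and the lists with earlier results known, these counts describe the libraries and carry no test.

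**Figure D3:**
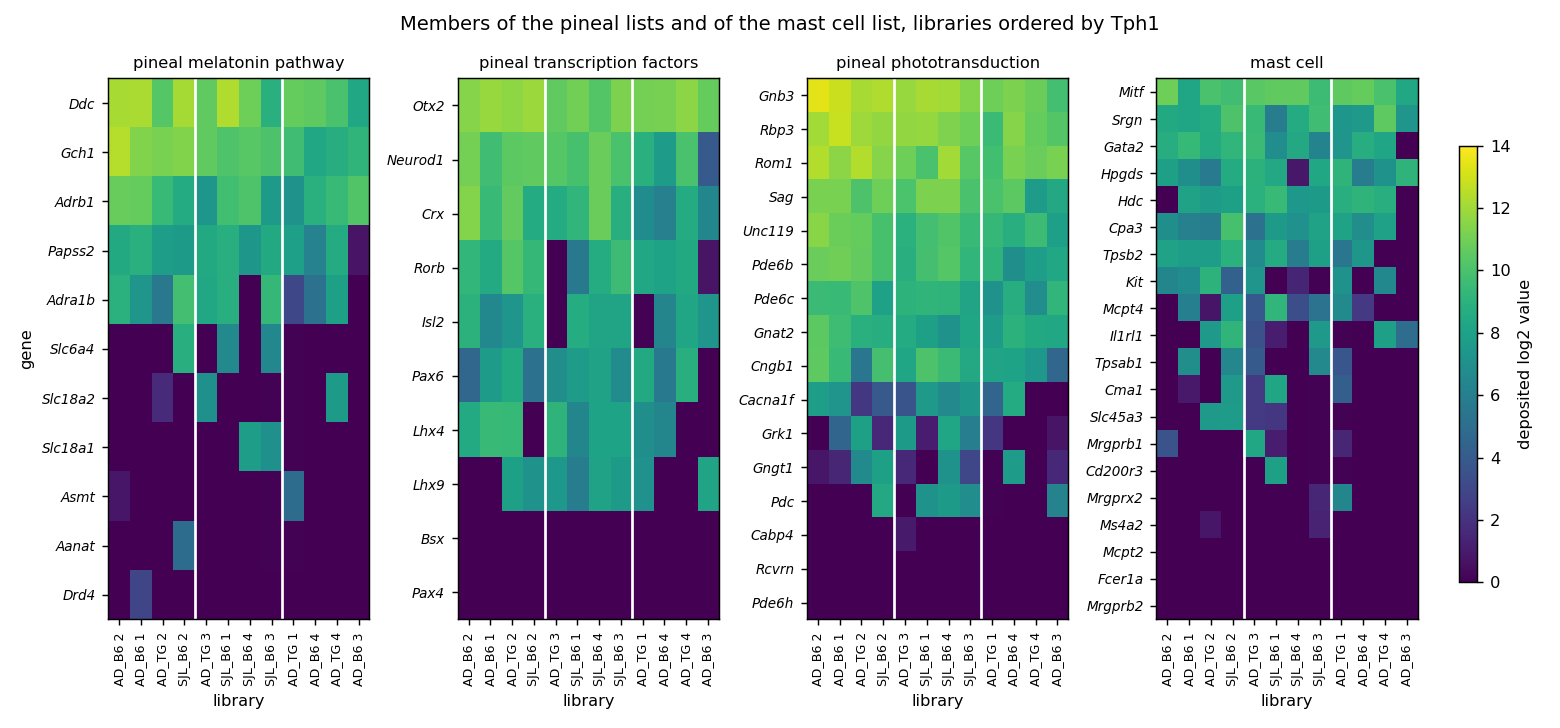
Deposited log2 values (colour, 0 to 14) of every member of the 3 pineal lists and of the mast cell list (rows) in the 12 libraries (columns, ordered by Tph1 from highest to lowest). White lines divide the Tph1-high libraries, those in between and the Tph1-low libraries. Gch1, Gnb3 and Rbp3 brighten to the left, most rows of the mast cell list have no such order, and the dark rows are genes with few or no reads.

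Nsf and Chgb, which belong to no fixed list and serve regulated secretion, passed as higher. Nsf encodes the ATPase that takes apart membrane fusion complexes after vesicle release, and it had the smallest adjusted p of all genes tested. Nsf stood at 12.98, 12.75, 12.64 and 13.12 in the Tph1-high libraries, against 11.14, 10.15, 10.72 and 10.69 in the Tph1-low libraries (difference 2.20, SE 0.33, 95% interval 1.51 to 2.88, adjusted p = 0.00703 in limma). Chgb, which encodes the granule protein chromogranin B, stood at 14.49, 14.10, 13.74 and 14.57 in the Tph1-high libraries and at 12.21, 13.07, 12.94 and 12.55 in the Tph1-low libraries (difference 1.54, SE 0.27, adjusted p = 0.0139). The classes of both genes did not overlap, against 2.9% of all genes tested, and lay more than 1 log2 unit apart for Nsf.

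A further 4 genes with roles in the nervous system or the retina passed. Celf3, an RNA-binding splicing regulator of neural tissue, ran from 11.03 to 11.89 in the Tph1-high libraries and from 5.42 to 10.33 in the Tph1-low libraries (difference 3.29, SE 0.67, adjusted p = 0.0449 in limma). Crabp1, a carrier of retinoic acid, ran from 11.53 to 12.27 in the Tph1-high libraries and from 7.33 to 9.84 in the Tph1-low libraries (difference 2.94, SE 0.50, adjusted p = 0.0139). Sorl1, a sorting receptor that steers the amyloid precursor protein among other cargo, ran from 11.37 to 12.83 in the Tph1-high libraries and from 8.33 to 10.56 in the Tph1-low libraries (difference 2.32, SE 0.48, adjusted p = 0.0449). Meg3, a maternally expressed long noncoding RNA, ran from 13.69 to 14.82 in the Tph1-high libraries and from 11.70 to 13.44 in the Tph1-low libraries (difference 1.48, SE 0.29, adjusted p = 0.0399). In none of the 4 did the classes overlap, against 2.9% of all genes tested without overlap.

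Of the 7 tested neuron markers, 6 were higher in the Tph1-high libraries and none passed, with a median difference of 1.02. The synaptic vesicle sensor gene Syt1 (1.92, SE 0.54, adjusted p = 0.268 in limma), the fusion protein gene Snap25 (1.96, SE 0.61, adjusted p = 0.355) and the neuronal tubulin gene Tubb3 (1.56, SE 0.65, adjusted p = 0.533) had classes that did not overlap, 3 of 7 against 2.9% of all genes tested. The median was 1.79 without AD_TG_2, 1.61 without AD_B6_4 and 1.66 without AD_TG_4. The summed share of the neuron list was 0.109 to 0.172% in the Tph1-high libraries and 0.0362 to 0.0729% in the Tph1-low libraries. Its part in the differences of Nsf, Chgb, Celf3 and Meg3 was not tested. Another 4 secretory genes, with no fixed list, were looked up after these values were seen. Chga (4.05, SE 1.27, adjusted p = 0.355) and Scg2 (2.07, SE 0.64, adjusted p = 0.342) had classes that did not overlap, against 2.9% of all genes tested. Cpe (-0.24, SE 0.65, adjusted p = 0.951) had classes that overlapped, and Pcsk1 had reads in 1 library, in between.

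A pair of subunits of the sodium pump moved in opposite directions. Atp1b2, the beta 2 subunit of glia, neurons and photoreceptors, stood at 13.14, 12.68, 12.48 and 12.68 in the Tph1-high libraries, against 11.62, 11.41, 10.88 and 10.86 in the Tph1-low libraries (difference 1.55, SE 0.29, adjusted p = 0.0183 in limma). Atp1b1, the beta 1 subunit common in epithelia, was the 1 gene that passed as lower: 12.14, 11.86, 12.65 and 11.46 in the Tph1-high libraries, against 13.64, 13.68, 13.29 and 13.25 in the Tph1-low libraries (difference -1.44, SE 0.26, 95% interval -1.97 to -0.91, adjusted p = 0.0142).

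Every one of the 13 genes that passed had reads in all 12 libraries, classes that did not overlap and a mean in between for the libraries in between. Genes that pass limma are picked for classes that lie apart, so the lack of overlap is no separate result. It held for 2.9% of all genes tested in the higher direction and for 1.96% in the lower. All 13 kept their sign in all 23 alternative settings. Because their classes did not overlap, leaving out libraries or changing the pseudocount or the gene filter could not turn a sign. The outcome of most settings was thus fixed in advance. The number that passed did not hold: 2 higher genes passed with the label group as a block and 1 with each library centred on its mean. With SJL_B6_3 in place of AD_TG_1 across the narrow lower edge, a setting chosen after seeing the data, 1 higher gene passed. No gene passed without AD_B6_2, 1 higher gene without AD_B6_1 and 4 without either SJL_B6_2 or AD_B6_3, while the 1 lower gene did not pass without AD_B6_2, AD_B6_1, SJL_B6_2, AD_TG_1 or AD_B6_4, and 12 lower genes passed without AD_TG_2.

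**Figure D4:**
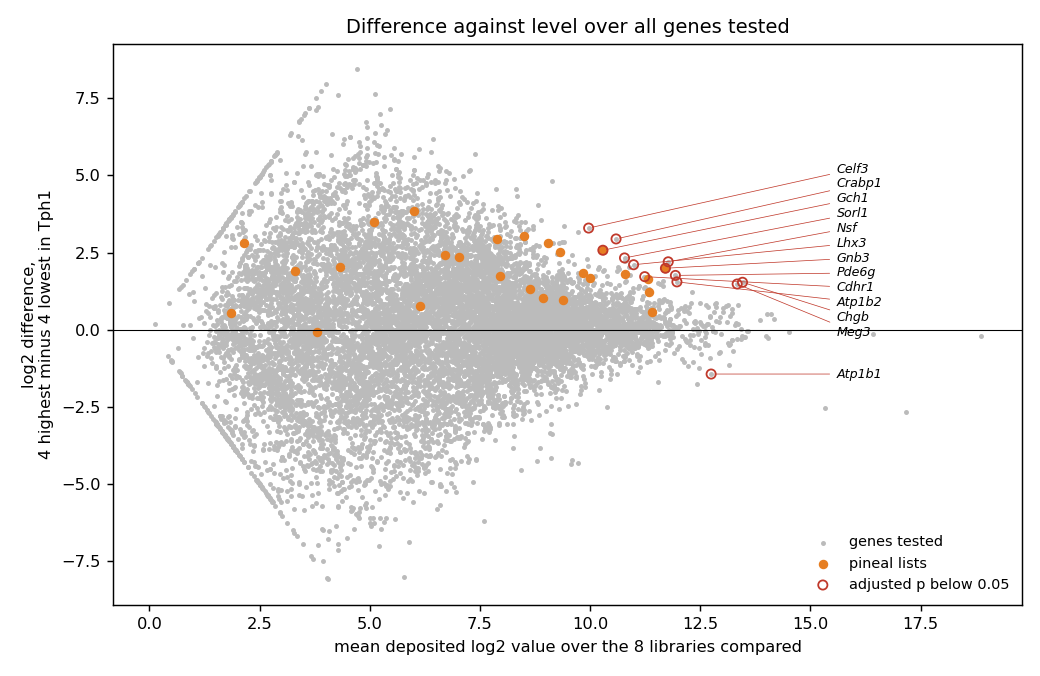
Log2 difference, Tph1-high minus Tph1-low libraries (vertical axis), against the mean deposited log2 value over the 8 libraries (horizontal axis) for the 11954 genes tested. Grey points are all genes, orange points the 26 tested members of the pineal lists, and red circles the 13 genes that passed limma, which all lie at mean values where the spread of the grey cloud is narrow.

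Ranked by Spearman correlation with Tph1 over the 12 libraries, the 10 genes most like it were C1ql2 (rho 0.958), Gnb3 and Gch1 (0.944 each), Cdhr1, Pde6g, Tulp1 and Celf3 (0.937 each), Sorl1 (0.93), and Atp1b2 and Nup88 (0.923 each). These correlations are a description over 12 libraries that differ in depth (4062460 to 9262220 estimated reads), and carry no p. C1ql2, which encodes a secreted relative of complement C1q, stood at 11.67, 10.97, 10.15 and 9.63 in the Tph1-high libraries and at 8.95, 7.42, 7.82 and 0 in the Tph1-low libraries (difference 4.56, SE 1.27, adjusted p = 0.268 in limma). It declined within the Tph1-high libraries in the same order as Tph1, but it was picked by its rank correlation with Tph1, so this is no separate result. Tulp1, a protein of photoreceptor transport, stood at 11.89, 11.77, 11.22 and 11.35 in the Tph1-high libraries and at 10.38, 10.32, 9.43 and 8.55 in the Tph1-low libraries (difference 1.89, SE 0.45, adjusted p = 0.136). Nup88, a nuclear pore protein gene, ran from 8.74 to 9.36 in the Tph1-high libraries and from 0 to 7.73 in the Tph1-low libraries (difference 3.65, SE 1.39, adjusted p = 0.483). Without AD_B6_3, where both were listed at 0, the difference was 2.54 for C1ql2 and 1.84 for Nup88. Another 5 photoreceptor genes were looked up after values had been seen, and none passed. The exchanger gene Slc24a1 (3.49, SE 0.87, adjusted p = 0.165), the ribbon synapse gene Cplx3 (1.72, SE 0.40, adjusted p = 0.114) and the chaperone gene Aipl1 (2.31, SE 0.69, adjusted p = 0.340) had classes that did not overlap, against 2.9% of all genes tested. In Prph2 (1.2, SE 0.73, adjusted p = 0.682) and Opn1sw (2.03, SE 2.60, adjusted p = 0.882) they overlapped.

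Mast cells, which also transcribe Tph1, were checked by a list of 20 genes. Mcpt2, Fcer1a and Mrgprb2 had no reads in any library, and Ms4a2, a chain of the IgE receptor, had reads in 2. Cpa3, the carboxypeptidase of mast cell granules, stood at 6.98, 6.08, 5.91 and 9.94 in the Tph1-high libraries, against 8.09, 6.91, 8.04 and 0 in the Tph1-low libraries (difference 1.47, SE 1.77, adjusted p = 0.876 in limma), so the classes overlapped. The tryptase gene Tpsb2 ran from 7.79 to 8.92 in the Tph1-high libraries and from 0 to 7.43 in the Tph1-low libraries and was the 1 of 11 tested members without overlap (difference 4.92, SE 1.87, adjusted p = 0.483), against 2.9% of all genes tested.

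The other mast cell genes did not all share a direction, though more of those tested were higher than lower. Hdc, the histamine-forming enzyme, had reads in 3 libraries of each class (difference -0.74, SE 1.92), and Kit, the stem cell factor receptor gene, in 4 Tph1-high and 2 Tph1-low libraries (3.23, SE 2.52). Cma1, Tpsab1, Mcpt4 and Il1rl1 had reads in 2 or 3 Tph1-high and in 1 or 2 Tph1-low libraries, and Gata2, which lymphatic endothelium also uses, in 4 and 3. Hpgds (-0.48, SE 1.55), Srgn (0.69, SE 0.95) and Mitf (-0.19, SE 0.60) differed by less than their SE. Mrgprb1, Mrgprx2, Slc45a3 and Cd200r3 had reads in 4 libraries or fewer and were not tested. Of the 11 members tested, 8 were higher (72.7%, against 52.8% of all genes tested) and 3 lower in the Tph1-high libraries. None passed, and the median difference was 1.44. That median was 0.29 without SJL_B6_2, 0.69 without AD_B6_3, 2.31 without AD_B6_2 and 2.25 without AD_TG_1, and among the 3 members with reads in all 12 libraries it was the -0.19 of Mitf. The summed share was 0.0353 to 0.0900% in the Tph1-high libraries and 0.0171 to 0.0575% in the Tph1-low libraries, so the classes overlapped. The mast cell part in the level of Tph1 itself was not tested.

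Choroid plexus transcripts ran against Tph1, unevenly over the libraries. Ttr stood at 17.29, 13.92, 18.69 and 13.38 in the Tph1-high libraries and at 18.63, 19.18, 18.70 and 17.48 in the Tph1-low libraries. It was thus low in AD_B6_1 and SJL_B6_2, and in AD_TG_2 as high as in the Tph1-low libraries (difference -2.68, SE 0.69, adjusted p = 0.202 in limma). Kcnj13, a potassium channel gene of choroid plexus epithelium, stood at 8.74, 0, 9.23 and 0 in the Tph1-high libraries and at 10.89, 11.25, 10.39 and 10.26 in the Tph1-low libraries, with no overlap (difference -6.20, SE 1.49, adjusted p = 0.136). It was the 1 of 12 tested members without overlap, against 1.96% of all genes tested that were lower without overlap. Enpp2 (-2.53, SE 0.71), the coagulation factor gene F5 (-4.36, SE 1.17) and Kl, the gene of the hormone co-receptor klotho (-4.32, SE 1.21), had adjusted p-values of 0.273, 0.244 and 0.270. Of 12 members tested, 11 were lower in the Tph1-high libraries and none passed, with a median difference of -3.02 (-1.83 without SJL_B6_2). Without AD_B6_1 and SJL_B6_2, the libraries lowest in Ttr, that median was -0.52, whereas the median of the pineal lists was 1.81. With those libraries left out, only 2 Tph1-high libraries remained and no gene passed in either direction. Ependyma, the ciliated lining next to the choroid plexus, had 5 of 6 tested markers lower in the Tph1-high libraries, with a median of -3.12 that was -1.12 without the same libraries, and none passed.

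Beside Atp1b1, the lower genes that came first by unadjusted p without overlap of the classes did not pass. Ace, which encodes the angiotensin-converting enzyme, stood at 6.70, 7.17, 10.01 and 6.48 in the Tph1-high libraries and at 10.22, 11.33, 10.39 and 10.67 in the Tph1-low libraries (difference -3.07, SE 0.70, adjusted p = 0.102 in limma). The chemokine gene Cxcl12 stood at 0, 5.93, 6.58 and 4.91 in the Tph1-high libraries and at 10.40, 10.43, 9.13 and 7.91 in the Tph1-low libraries (difference -5.11, SE 1.27, adjusted p = 0.163). Cyp2j9, a cytochrome P450 gene, and Prkcq, which encodes protein kinase C theta, were listed at 0 in all 4 Tph1-high libraries. In the Tph1-low libraries they ran from 7.35 to 9.54 and from 7.58 to 8.54, with adjusted p-values of 0.156 and 0.203 in limma. Among the libraries in between, Cyp2j9 had reads in 1 and Prkcq in 2. Both thus met the filter for testing only through the Tph1-low libraries, and their zeros are no separate result. Among the others were 1500015O10Rik, which encodes the secreted peptide augurin (-1.16, SE 0.29) and the RNA-binding protein gene Hnrnpa2b1 (-1.60, SE 0.43).

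Markers of the connective tissue and vessels of the meninges were mostly lower in the Tph1-high libraries, and none passed. Col1a1, the collagen gene of fibroblasts, stood at 11.59, 12.21, 11.05 and 12.59 in the Tph1-high libraries, against 12.74, 13.00, 13.00 and 13.61 in the Tph1-low libraries (difference -1.23, SE 0.31, adjusted p = 0.199 in limma), without overlap. This held for 1 of 13 tested fibroblast markers, against 1.96% of all genes tested. Of 13 tested fibroblast markers, 11 were lower in the Tph1-high libraries, with a median of -1.23, among them Igf2 (-1.13, SE 0.33), Dcn (-1.38, SE 0.49) and Pdgfra (-4.56, SE 1.60). The summed share of the fibroblast list overlapped, at 0.463 to 0.712% in the Tph1-high libraries and 0.690 to 1.14% in the Tph1-low libraries.

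Endothelial markers were sparse. Of 15 tested pan-endothelial markers 13 were lower in the Tph1-high libraries, with a median of -2.39, and of 6 mural cell markers all 6, with a median of -1.17 (-0.62 without AD_B6_2, -2.23 without AD_B6_1 and -2.02 without AD_B6_4). Pecam1, a junction gene of all endothelium, had reads in 2 Tph1-high and 4 Tph1-low libraries. The pan-endothelial list summed to 0.0177 to 0.0304% in the Tph1-high libraries and 0.0284 to 0.0445% in the Tph1-low libraries. The lymphatic endothelial list had 5 of 11 tested members higher and 6 lower in the Tph1-high libraries, with a median of -0.05 (-0.34 to 0.22 with 1 library left out) beside 0.10 over all genes. Lyve1, a hyaluronan receptor gene of lymphatic endothelium and macrophages, ran from 8.45 to 10.39 in the Tph1-high libraries and from 0 to 9.24 in the Tph1-low libraries (difference 2.87, SE 1.38, adjusted p = 0.601 in limma). Rcan1, the mouse gene of the DSCR1 protein named in the series title, stood at 9.55, 8.74, 9.28 and 5.21 in the Tph1-high libraries and at 6.47, 7.34, 7.70 and 9.54 in the Tph1-low libraries (difference 0.44, SE 1.07, adjusted p = 0.947).

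**Figure D5:**
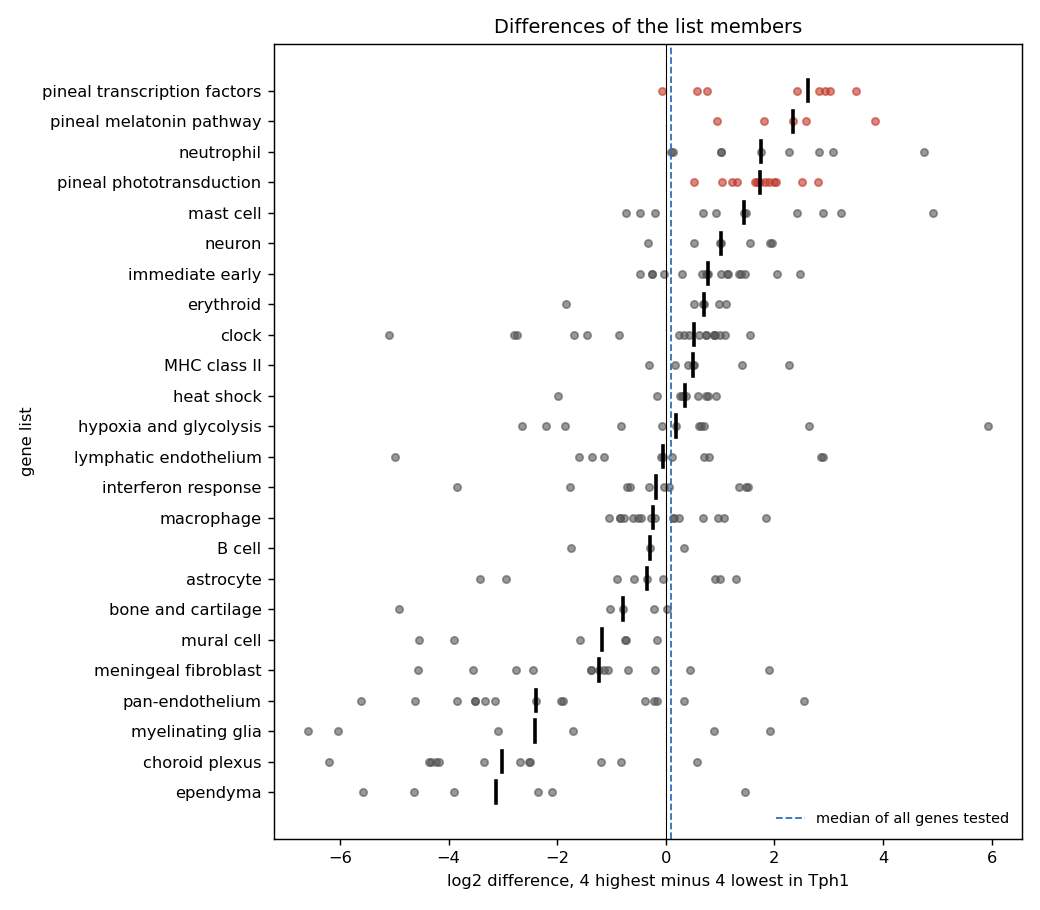
Log2 differences, Tph1-high minus Tph1-low libraries (horizontal axis), of the tested members of each gene list (rows, sorted by median); each point is a gene, the black bar is the list's median and the dashed line is the median of all genes tested. The pineal lists (red) have medians of 1.74 to 2.62 and fill 3 of the 4 highest rows, with the neutrophil list (median 1.75) among them, and the choroid plexus and ependyma lists at the bottom, with medians of -3.02 and -3.12.

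Over all 11954 genes, every Tph1-high library lay above every Tph1-low library for 347 genes (2.9%) and below it for 234 (1.96%). At an unadjusted p below 0.05 there were 559 higher and 429 lower genes, where 597.7 in both directions together would be met by chance. In a trial of the fit, each gene's values were shuffled over the libraries and known changes were added to the Tph1-high libraries. The fit recovered 64.7% of 4-fold and 97.0% of 16-fold changes among genes with a mean log2 value of 10 or more. Below that it recovered 3.03 and 39.4%, so differences of sparse transcripts may largely go undetected. Shuffling breaks what genes share within a library, so recovery in the real fit may differ.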

How the data were processed

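The authors deposited 1 table per library with log2 values per gene symbol; the values are log2(x + 1) of scaled amounts, and the scaling method is not given in the sources used here. The submitters' processing notes name the tools Bowtie2 and bedtools and the human build hg19, although the symbols are those of the mouse, and no coordinates were taken from the files. Of 23282 entries, 44 were left out (for each of 35 repeated symbols only the entry highest on average was used), leaving 23238 symbols, of which 23132 (99.5%) matched the RefSeq table. A gene had reads at a linear value of 0.3 or more. The size of 1 read, 0.700 to 1.73, was read from the regular spacing of low linear values (91.3 to 100% of values below 20 were whole multiples within 0.15), which gave 4062460 to 9262220 estimated reads per library.

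Libraries were ranked by Tph1 into 3 classes of 4. Genes other than Tph1 that reached a linear value of 10 in 4 or more libraries entered limma 3.58.1 (lmFit, eBayes with trend) in R 4.3.3 on the deposited log2 values, all 12 libraries in 1 fit, Tph1-high minus Tph1-low, two-sided, with Benjamini-Hochberg adjustment over all 11954 genes and a threshold of 0.05. Tph1 ranked the same libraries that were then compared, so anything that moves with Tph1 between libraries enters every difference. Single library measures had exact permutation tests. Python 3.11.15 with pandas 2.3.3 and numpy 2.4.6 did the rest. The fit was tried on the deposited values shuffled within each gene, with known changes added to the Tph1-high libraries.

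The genes named were all members of the pineal and mast cell lists, Prox1, Rcan1, the 10 largest differences per direction that passed (filled with the smallest unadjusted p among genes without overlap and a mean linear value of 50 or more), the 10 most like Tph1, and up to 4 members of other lists by unadjusted p. Chgb and Meg3 passed but fell outside the first 10. Some genes that these rules name are not reported here. The retinal genes and those said to be looked up later were added after their values were seen. Members and lists were chosen with earlier results of these data known. Replicate numbers showed no pairing over all genes tested together: deviations from the label group means correlated with a median of 0.01 across the 12 pairs of libraries with the same number. Whether libraries with the same number share a step that moved Tph1 or the genes that passed was not tested.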

Additional observations from a re-analysis of the deposited data

Results flagged for a closer look

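In 248 sets of 4 libraries (the genes looked at and 4 library measures, each in the Tph1-high and the Tph1-low libraries), 41 had 1 library far from the other 3 by Dixon's ratio of gap to range (95% critical value); chance gives about 1 in 20, and the sets share libraries and many hold zeros. No explanation was weighed. In each case the value given is that of the library far from the rest of its class.

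Most flags among the Tph1-high libraries were reads in a single library. SJL_B6_2 stood out high in Aanat (4.93), Slc6a4 (8.83), Pdc (8.45), Cma1 (7.53), Nrl (7.54) and Ly6c1 (7.60), and low in Lhx4 (0). AD_B6_2 stood out high in Gch1 (12.46), Asmt (0.86) and Mrgprb1 (3.57), and low in Hdc (0) and Cd68 (4.21). AD_TG_2 stood out low in Crabp1 (11.53) and Ddc (10.33), and high in Slc18a2 (1.73), Ms4a2 (0.85), Pde6a (5.93) and Hbb-bs (12.63). AD_B6_1 stood out high in Drd4 (2.93) and Nr2e3 (1.95).

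Among the Tph1-low libraries, AD_B6_3, with the fewest genes with reads, stood out low in Crabp1 (7.33), Rorb (0.75), Igf2 (13.05) and, each listed at 0, in C1ql2, Nup88, Cpa3, Hdc, Gata2 and Chga, and high in Pdc (6.25) and Dcn (13.38). AD_TG_1 stood out high in Asmt (4.97), Cma1 (4.21), Tpsab1 (3.73), Mrgprb1 (1.49) and Mrgprx2 (6.41). AD_TG_4 stood out high in Slc18a2 (7.65), Srgn (10.51), Pde6a (3.64) and Opn1mw (6.84), and AD_B6_4 low in Tef (9.93).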

How the results depend on the processing

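The numbers of genes that passed limma as higher and lower in the Tph1-high libraries, 12 and 1, were 2 and 0 with the label group as a block, 2 and 0 with no filter on low values, 34 and 12 with a pseudocount of 16, 1 and 0 with libraries centred on their mean, and 42 and 1 with Tph1 as a continuous term. With the replicate block they were 0 and 10, and 0 of the 13 genes of the main fit passed there. Over all genes tested together, libraries with the same number correlated at only -0.02 to 0.07. All libraries with the number 2 were Tph1-high, so the block and the classes are partly confounded. When each library was left out in turn they ran from 0 to 14 and from 0 to 12. Chosen after seeing the data, SJL_B6_3 in place of AD_TG_1 at the narrow lower edge gave 1 and 0, and leaving out both libraries lowest in Ttr gave 0 and 0. In limma with 8 libraries only, 9 and 1 passed. The counts of genes without overlap, 347 above and 234 below, were 202 and 109 among genes with reads in all 12 libraries, 1091 and 854 without both libraries lowest in Ttr, and 347 to 572 and 234 to 534 with each library left out, where smaller classes overlap less by construction.

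Of list medians, 555 values moved by less than the spread and 15 by more. With the replicate block the medians were -0.41 for clock, -1.23 for pan-endothelium, 4.35 for neutrophil, 2.86 for B cell and -0.68 for myelinating glia. With genes with reads in all 12 libraries, mast cell was at -0.19 and myelinating glia at 0.90, and with a pseudocount of 16 pan-endothelium was at -1.43. Leaving out each library in turn gave -0.21 to 0.84 for clock, -2.23 to -0.62 for mural cell and 1.49 to 2.86 for pineal transcription factors. Without both libraries lowest in Ttr, choroid plexus was at -0.52, ependyma at -1.12, bone and cartilage at -2.84 and heat shock at 1.05.

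The sign of 11 genes, none of which had passed, turned under some settings, and the cause was not tested. With the replicate block the differences were -0.71 for Cpa3, 0.26 for Hdc, -1.09 for Il1rl1, -0.32 for Mcpt4 and -1.79 for Pdc. With Tph1 as a continuous term they were 0.60 for Hdc, -0.92 for Il1rl1, 0.27 for Mitf and -1.22 for Pdc. With SJL_B6_3 in place of AD_TG_1 they were -0.96 for Il1rl1, 0.0385 for Mitf and -1.17 for Pdc. Without both libraries lowest in Ttr they were 0.14 for Lhx9, -1.83 for Mcpt4, 0.56 for Mitf, -1.59 for Pdc and -0.94 for Tpsab1. The label group block gave -1.56 for Pdc, and a pseudocount of 16 gave -0.027 for Pax6. Leaving out each library in turn gave -0.45 to 2.25 for Cpa3, -2.97 to 1.24 for Hdc, -1.12 to 0.053 for Hpgds, -0.74 to 2.48 for Il1rl1, -1.45 to 1.39 for Lhx9, -0.70 to 0.30 for Mitf, -1.16 to 1.78 for Pax6, -1.59 to 2.08 for Pdc and -0.016 to 1.43 for Rcan1. The settings not named here turned no sign of a named gene. Below a mean log2 value of 10 few changes could be recovered in the shuffled data, and the part of depth in this was not tested.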

Other observations

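Other lists described the rest of the tissue, and none of their members passed limma. All 9 tested neutrophil genes were higher in the Tph1-high libraries, with a median difference of 1.75. It was 0.70 without AD_B6_1, 0.78 without AD_TG_1, 0.93 without AD_TG_4, 2.83 without AD_B6_4 and 2.91 without AD_B6_2. Camp, which encodes a granule peptide, stood at 7.58, 9.72, 9.44 and 8.64 in the Tph1-high libraries, against 7.22, 9.17, 0 and 0 in the Tph1-low libraries (difference 4.75, SE 2.28), and S100a8, a calprotectin subunit gene, differed by 2.83 (SE 1.61), with overlap in both. Of 17 immediate early genes 13 were higher, with a median of 0.77 (0.39 without AD_TG_2, 1.29 without AD_B6_1). Among them the stress-responsive factors Junb (1.35, SE 0.45), Jun (1.15, SE 0.45) and Egr1 (1.39, SE 0.58) were highest in AD_B6_2 and AD_TG_2, where Egr1 stood at 12.84 and 13.82, against 9.47 to 11.40 in the Tph1-low libraries. Of 18 clock genes 12 were higher, with a median of 0.51 (-0.21 to 0.84 with 1 library left out). The output factor gene Tef (0.89, SE 0.46) was the 1 of 18 without overlap, against 2.9% of all genes tested, whereas Clock, a core activator, was lower (-2.80, SE 1.30). The MHC class II list had 6 of 7 members higher (median 0.50, or 0.18 without SJL_B6_2 and 0.27 without AD_B6_4; H2-Aa 0.50, SE 0.24).

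Macrophage markers were near the median of all genes, with 7 of 16 higher and a median of -0.24 (-0.57 to 0.17 with 1 library left out). Csf1r, the receptor gene that macrophages depend on, stood at 12.47 ± 0.61 in the Tph1-high libraries and 12.23 ± 0.30 in the Tph1-low libraries (SD, n = 4 each, adjusted p = 0.880 in limma). Members higher in the Tph1-high libraries were 5 of 6 for erythroid (median 0.70), 8 of 10 for heat shock (0.35), 6 of 11 for hypoxia and glycolysis (0.20), 4 of 10 for interferon response (-0.18), 3 of 9 for astrocyte (-0.35), 2 of 6 for myelinating glia (-2.40), 1 of 5 for bone and cartilage (-0.79) and 4 of 6 for the sex-linked list (0.46). With 1 library left out these medians ran from 0.25 to 1.58 for erythroid, 0.021 to 0.73 for heat shock, -0.23 to 0.55 for hypoxia and glycolysis, -0.51 to 0.32 for interferon response, -0.77 to -0.047 for astrocyte, -3.17 to -1.47 for myelinating glia and -1.60 to 0.088 for bone and cartilage. The sex-linked list pools Xist and Tsix with genes of the Y chromosome, so its count and median describe no single direction. Ddx3y, a gene of the Y chromosome, had reads in all 12 libraries and Xist in 7. The B cell (3 tested), melanocyte (2), T and NK cell (1) and skeletal muscle (1) lists had too few tested members to describe.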
